A study of Homo sapiens with 24 samples.

Results

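The baseline transcriptome of U87MG, a human glioblastoma cell line, was compared with that of 3 other glioblastoma lines, T98G, U251MG and DBTRG-05MG. The members were the 3 U87MG control libraries, taken from 12 control libraries and from 24 libraries in the whole series, and the genes described were the 11474 autosomal genes, of 43037 in the table, that reached 5 CPM (tag counts scaled to a common library total of 1000000) in at least 1 of the 12 control libraries. Every group carried a stably integrated lentivirus selected with puromycin. The control groups, called Vec, had received the empty Puro-Blank virus, and the matched WWOX groups had received a virus that carries the WWOX tumor suppressor gene, with 3 libraries in each of the 4 lines and both variants. U87MG and U251MG were grown in EMEM, T98G in MEM and DBTRG-05MG in RPMI-1640, so medium and line cannot be told apart for T98G and DBTRG-05MG. U87MG is 1 line, which limits it as a model: the p-values measure the spread between separate libraries of these lines, not the spread between patients. Just inside the 5 CPM limit, GATA3-AS1 and SLC2A13 peaked at 5.01 CPM, and just outside it ZNF778-DT and CD81-AS1 peaked at 4.99 CPM.

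Glioblastoma is a malignant tumor of the astrocytic lineage, and its lines in serum culture often carry more mesenchymal than glial gene expression. U87MG is among the most used of these lines. It is known for an adherent, spindle-shaped growth in culture, and the stock in general circulation has a genotype that differs from that of the tumor it was named after. CAGE-Seq counts the capped 5′ ends of RNAs, so each tag marks a transcription start, and a gene's CPM needs no division by transcript length.

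The Vec libraries held 12333788 to 15960454 tags, and the 3 of U87MG held 12941276 to 14256679, so that 3 tags, taken as the detection floor, were worth 0.188 to 0.243 CPM. The U87MG libraries correlated with each other at r = 0.964 to 0.982 across genes, which are not independent replicates. Against the other lines their r was 0.747 to 0.787 with T98G, 0.747 to 0.774 with U251MG and 0.726 to 0.763 with DBTRG-05MG, while the other 3 lines correlated among themselves at 0.725 to 0.838. The WWOX gene itself, at 37.9 ± 3.48 CPM (SD, n = 3) in U87MG Vec, lay inside the range of the other Vec libraries, 20.4 to 57.2 CPM, and stood at 61 to 66 CPM in the U87MG WWOX libraries.

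Against the mean of the other 3 lines, each weighted equally, 5540 of 11474 genes (48.3%) differed in U87MG Vec by limma at an adjusted p under 0.05, with 2587 higher (22.5%) and 2953 lower (25.7%). An unadjusted p under 0.05 was reached by 6272 genes. All differences are on the scale of log2(TMM-scaled CPM + 0.5), where TMM scaling evens out libraries by the genes that change least, with a median standard error of 0.234, and all CPM values are those deposited. When the deposited CPM were used without TMM scaling, the median of all genes moved by -0.155, and the calls split into 1974 higher and 3463 lower, that is, 36.3% instead of 46.7% higher. Each other line taken alone gave 4951 calls for T98G (43.1%), 4814 for U251MG (42%) and 5432 for DBTRG-05MG (47.3%). These comparisons share the 3 U87MG libraries.

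A mean over 3 lines can be moved by any of them, so a stricter class was formed. A gene was set apart in U87MG when it differed from each of the 3 lines in the same direction at an adjusted p under 0.05, when the difference nearest to 0 was at least 1 on the log2 scale, and when its U87MG libraries did not overlap the other 9. This class held 545 genes set apart as higher (4.75%) and 642 as lower (5.6%), 1187 in all. The same count was 768 for T98G, 454 for U251MG and 807 for DBTRG-05MG. Of the 545, 42 had 3 tags or fewer in each of the 9 other libraries, and of the 642, 241 had 3 tags or fewer in each U87MG library. The separate WWOX libraries of the same lines were not used in forming the class, and in them 351 of the 545 (64.4%) and 388 of the 642 (60.4%) were again set apart in the same direction, against 4.09% and 4.72% of all genes, with 0 in the opposite direction.

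The gene set apart highest was CYBA (chr16:88643275-88651083, hg38, minus strand), which encodes p22phox, the membrane subunit shared by NADPH oxidases. It had 647, 719.6 and 575 CPM in the 3 U87MG Vec libraries and at most 0.398 CPM in the other 9, with 0 tags in the 3 DBTRG-05MG libraries. The U87MG libraries thus sat far above all others, and the ratio of U87MG to U251MG, the nearest line, was 3670.0 (95% counting interval 1781 to 9129), an interval that covers counting error only. The 200 bases before its RefSeq start held 18 CG pairs. They are shown, with CG in capitals, as the sequence just before the annotated start of the top gene, for chr16:88651054-88651253, minus strand, in GRCh38.p14.
CYBA: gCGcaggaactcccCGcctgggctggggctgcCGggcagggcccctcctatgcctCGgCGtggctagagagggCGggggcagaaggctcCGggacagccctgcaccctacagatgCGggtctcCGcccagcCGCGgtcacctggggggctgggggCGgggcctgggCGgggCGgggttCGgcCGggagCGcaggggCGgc
Of 3 oxidase genes looked up after their values were seen, NCF1, a cytosolic oxidase subunit, had at most 0.155 CPM in any Vec library, and NOX4, a catalytic subunit that binds p22phox directly, had 0 tags in all 12. CYBC1, a chaperone of the oxidase, was present in each line, at 37.7 CPM in U87MG and 43.5 to 65.9 CPM as means of the others, with no call (adjusted p = 0.3).

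CSF3, the gene of granulocyte colony-stimulating factor, came next (chr17:40015361-40017813). Its levels were 811, 363 and 658 CPM in U87MG and 0 to 0.335 CPM elsewhere, a difference of 9.96 ± 0.24 (standard error, adjusted p = 8.52e-12). Tags at the floor in the other lines do not show that the gene is silent there, only that it was not detectable at this depth. CTSK encodes the collagen-degrading protease cathepsin K. It stood at 271, 204 and 144 CPM against at most 0.258 CPM, with a ratio to DBTRG-05MG of 1579 (95% counting interval 725 to 4304). COL1A1, the main chain of type I collagen, had 157, 500.4 and 405 CPM in U87MG, where the first replicate was the lowest, and 0.196 to 9.09 CPM in the other lines.

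SBSN, the gene of the epidermal secreted protein suprabasin (chr19:35523367-35528351), had 88.4, 114 and 61.4 CPM in U87MG against at most 0.545 CPM. Its start region is shown because it holds 2 matches to TGANTCA, the letters bound by AP-1, the FOS and JUN family of transcription factors. The matches, in capitals, began 173 and 71 bases before the RefSeq start in chr19:35528312-35528511, minus strand.
SBSN: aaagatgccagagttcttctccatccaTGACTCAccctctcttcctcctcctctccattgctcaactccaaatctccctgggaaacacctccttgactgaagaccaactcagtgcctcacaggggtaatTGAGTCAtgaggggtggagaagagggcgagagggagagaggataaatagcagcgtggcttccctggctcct
These letters read the same on both strands, and a match is a description of the sequence, not of binding.

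**Figure D1:**
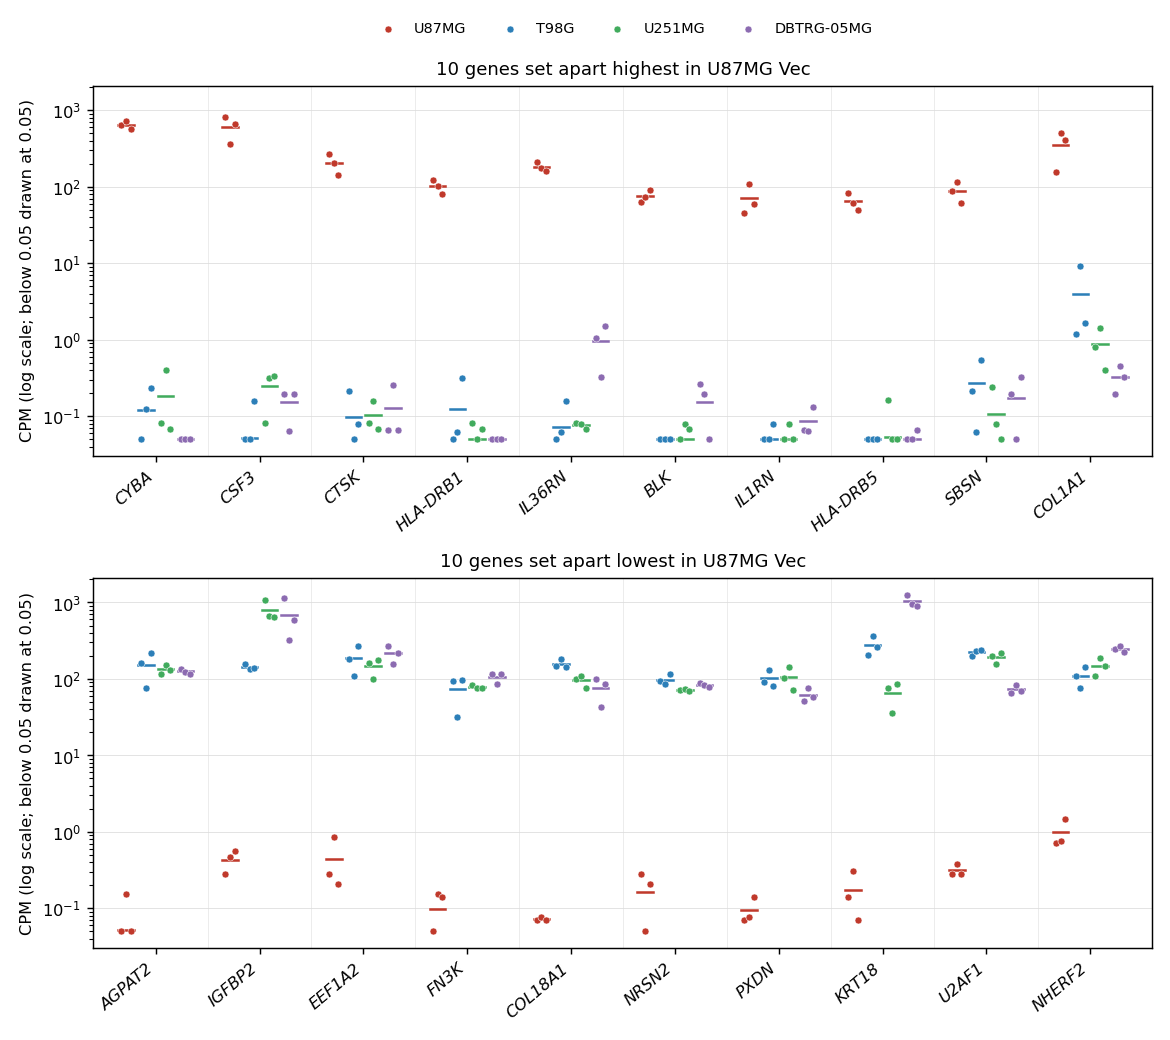
CPM (log scale) of the 10 genes set apart highest (upper panel) and lowest (lower panel) in U87MG Vec, with 1 point per library, 3 libraries per line, and a bar at each line's mean; values below 0.05 CPM are drawn at 0.05. In every gene the 3 U87MG points lie apart from the 9 others, as being set apart requires. CYBA had 575 CPM or more against at most 0.398 CPM, and AGPAT2 no more than 0.155 CPM against at least 76.8 CPM.

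MHC class II molecules present peptides to CD4+ T cells and are normally made by antigen-presenting cells, or by other cells under interferon gamma. HLA-DRB1, a beta chain, was among the 10 highest genes, with 123, 102 and 80.6 CPM in U87MG and at most 0.311 CPM elsewhere, and so was HLA-DRB5, with 82.9, 60.4 and 49 CPM against at most 0.162 CPM. Both are near-identical and highly variable copies, so the split of tags between them is uncertain. The rest of the class was looked up after this was seen. HLA-DRA, the shared alpha chain of HLA-DR, had 14.9, 15.3 and 11.6 CPM in U87MG and at most 0.439 CPM in the other lines. CD74, the invariant chain that guides class II molecules through the cell, had 201, 237 and 129 CPM against 0 to 4.06 CPM. HLA-DQB1 had 20.5, 26.4 and 20.6 CPM and 0 tags in all 9 other libraries, which made it at least 92.5-fold higher. HLA-DPA1, at 42.2, 49.1 and 33.9 CPM against at most 6.69 CPM, and HLA-DPB1, at 29.3, 25.7 and 22.1 CPM against at most 10.0 CPM, were set apart as well.

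All 7 of these were again set apart in the WWOX libraries. The class was not uniform. HLA-DMB, which helps to load peptides, had 5.93 CPM in U87MG and 8.85 CPM in T98G as means, and HLA-DMA was too low to be tested. CIITA, the transactivator of the class, was also below the 5 CPM limit, with 2.41, 1.85 and 2.6 CPM in U87MG against 0 to 1.09 CPM. Of the leukocyte markers, PTPRC, the pan-leukocyte antigen CD45, had 0 tags in all 12 Vec libraries and CD14, a monocyte marker, had at most 0.351 CPM. CSF1R, the receptor for macrophage colony-stimulating factor, stood at 6.25, 9.5 and 14.7 CPM in U87MG against at most 0.405 CPM and made up most of the leukocyte and microglia marker sum, 6.39 to 15.1 CPM against 0 to 0.486 CPM, with 5 of the 7 markers at the floor in U87MG. In these bulk libraries fewer cells of a type and less RNA per cell cannot be told apart.

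Interleukin 1 family members lie side by side on chromosome 2, and 4 of them were set apart as higher, namely IL1B, IL36B, IL36RN and IL1RN (chr2:112829751-113134016). IL36RN, the natural antagonist of the interleukin 36 receptor, had 211, 174 and 159 CPM in U87MG against at most 1.51 CPM. IL1RN, the antagonist of the interleukin 1 receptor, had 46, 108 and 58.9 CPM against at most 0.132 CPM. The agonists of both receptors were present in the same libraries. IL1B had 36, 19.9 and 51.8 CPM against at most 1.62 CPM, and IL36B had 23.1, 32.4 and 12.4 CPM against at most 0.0811 CPM. In none of the 4 did a U87MG library overlap the rest, as being set apart requires. IL1R1, the signalling receptor chain, was set apart too, at 7.17, 8.35 and 15.6 CPM against 0.327 to 4.95 CPM, whereas its partner IL1RAP was lower by the mean contrast (-2.15 ± 0.44, adjusted p = 0.00122) without being set apart. IL36B, IL1R1 and IL1RAP were looked up after the neighbouring genes were seen. The start region of IL36RN (chr2:113058438-113058637, plus strand), shown beside that of CYBA, held 0 CG pairs.
IL36RN: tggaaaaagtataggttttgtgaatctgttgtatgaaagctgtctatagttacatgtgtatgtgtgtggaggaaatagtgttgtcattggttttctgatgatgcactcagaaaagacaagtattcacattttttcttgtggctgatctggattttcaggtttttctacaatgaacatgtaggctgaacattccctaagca

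BLK, a SRC family kinase best known from B cells, was the sixth highest, at 63.6, 74.2 and 90.8 CPM against at most 0.262 CPM. The following genes were also set apart as higher, HAS2 aside, and were chosen after their values were seen. HAS1, a hyaluronan synthase, had 34.4, 44.3 and 64.3 CPM against at most 0.067 CPM, while HAS2 had 0 tags in U87MG and at most 0.239 CPM elsewhere. ADCY8, a calcium-stimulated adenylyl cyclase, had 56, 57.7 and 39.1 CPM against at most 0.156 CPM. BDKRB1, the inducible bradykinin receptor, had 21.4, 48.8 and 45.9 CPM against at most 0.0778 CPM. PDPN, the mucin-like protein podoplanin, was at 47.9, 56.8 and 60.5 CPM against 0.067 to 1.17 CPM, and RRAD, a RAS-related GTPase, at 204, 361 and 442 CPM against 0.324 to 9.95 CPM. In these 5 genes every U87MG library lay above all 9 others, which the definition of the class requires.

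At the other end, AGPAT2 was the gene set apart lowest (chr9:136673143-136687457). It encodes an acyltransferase of triglyceride and phospholipid synthesis. U87MG had 0, 0.155 and 0 CPM, that is, 2 tags in all, whereas the other 9 libraries held 76.8 to 218 CPM. Its level in DBTRG-05MG, the nearest line, was 2591 (95% counting interval 717 to 21400.0) times that in U87MG. FN3K encodes fructosamine 3-kinase, which repairs glycated proteins. It had 0, 0.155 and 0.14 CPM against 31.8 to 116 CPM. The start region of AGPAT2 (chr9:136687458-136687657, minus strand) holds 24 CG pairs and is shown with CG in capitals as an example of a gene with hardly a tag in U87MG.
AGPAT2: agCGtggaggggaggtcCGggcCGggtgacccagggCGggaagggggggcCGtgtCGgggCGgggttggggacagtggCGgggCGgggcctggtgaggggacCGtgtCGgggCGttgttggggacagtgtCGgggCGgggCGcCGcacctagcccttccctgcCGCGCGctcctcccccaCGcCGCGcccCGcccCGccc

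The remaining genes of the lowest 10 have varied roles. IGFBP2, a secreted binding protein of insulin-like growth factors, had 0.284, 0.464 and 0.561 CPM in U87MG and 135 to 1131 CPM elsewhere. EEF1A2, a tissue-restricted translation elongation factor, had 0.284, 0.85 and 0.21 CPM against 101 to 273 CPM. PXDN, a peroxidase that crosslinks collagen IV, had 0.071, 0.0773 and 0.14 CPM against 51.1 to 142 CPM. In each of these the U87MG libraries lay close together near the floor. KRT18, a keratin of simple epithelia, had 0.142, 0.309 and 0.0701 CPM against 36.1 to 1259.7 CPM, and its partner KRT8, looked up afterwards, had 0, 0.0773 and 0.14 CPM against 0.649 to 29.8 CPM. COL18A1, the gene of collagen XVIII, had 0.071, 0.0773 and 0.0701 CPM against 43.7 to 185 CPM, but it overlaps another annotated gene on the same strand, as do these genes described elsewhere: SOX2, PLAUR, THBS1, S100A4, GDF15, ERBB2, MTAP, COL7A1, ITGB8, HOXB9, HOXB6, HOXB8, HOXC9, EGLN3, SFRP1, NF1, WWOX, HLA-DPB1, IL1RAP, CHFR, FOCAD, MLLT3, ZNF808, COL4A2, TIMP2. NRSN2, a neuronal vesicle protein, had 0.284, 0 and 0.21 CPM against 70.1 to 117 CPM, and NHERF2, a scaffold of membrane transporters, had 0.71, 0.773 and 1.47 CPM against 75.9 to 268 CPM. U2AF1, a splicing factor, had 0.284, 0.386 and 0.281 CPM against 66.3 to 242 CPM, which is uncertain because hg38 holds a near-identical copy of this gene and the tags could be split or dropped.

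Also set apart as lower, and chosen after their values were seen, were 6 more genes. LRP5, a coreceptor of WNT ligands, had 0.071, 0.0773 and 0.14 CPM against 27.1 to 50.5 CPM. FBLN1, a matrix glycoprotein, had 0.142, 0.155 and 0.14 CPM against 24.5 to 245 CPM. TNS3, which links integrins to actin, had 0.355, 1.08 and 0.842 CPM against 60.5 to 189.7 CPM. MYH10, a non-muscle myosin heavy chain, BCAM, a laminin receptor, and CHFR, a mitotic checkpoint ubiquitin ligase, were the others. CHFR had 0 tags in the 3 U87MG libraries and 11.5 to 21.4 CPM elsewhere, so its level was at least 62.9-fold lower than in the nearest line.

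**Figure D2:**
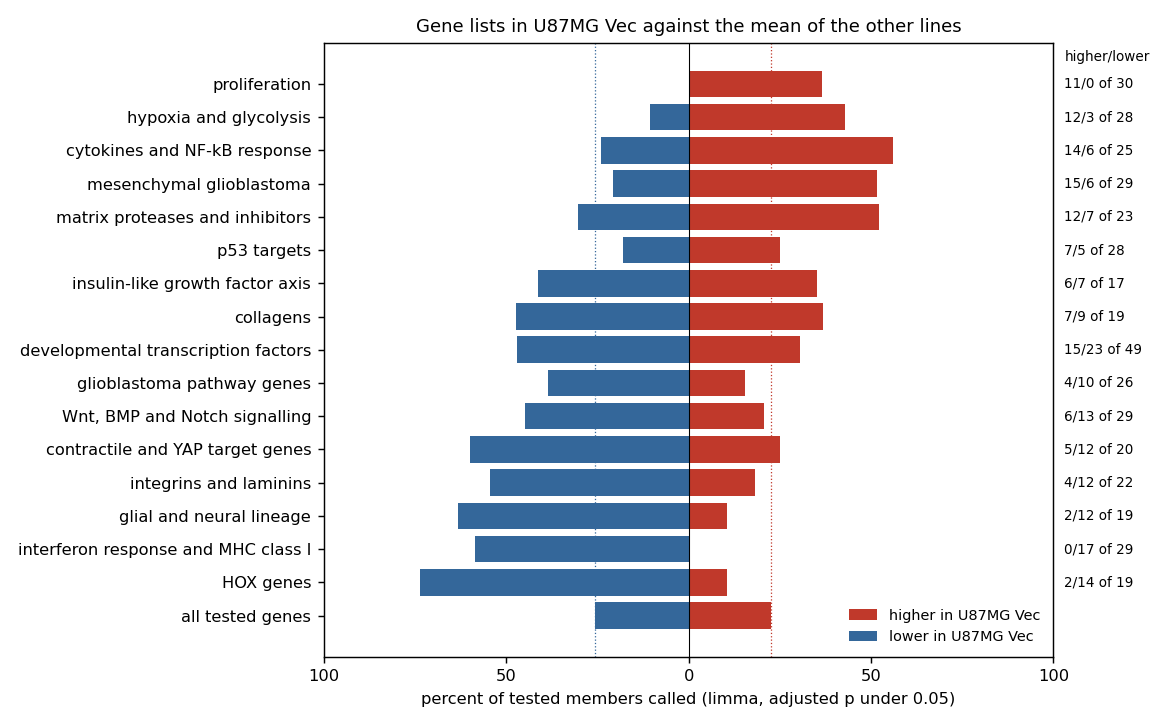
Percent of the tested members of 16 gene lists that were higher (right, red) or lower (left, blue) in U87MG Vec than the mean of the other 3 lines, by limma at an adjusted p under 0.05; dotted lines and the lowest bar give all 11474 genes, and the counts at the right are members higher and lower of those tested. HOX genes show the largest share lower (14 of 19), and cytokines the largest share higher (14 of 25).

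The glial and neural lineage list had 12 of 19 tested members lower, 2 higher and 5 with no call, with a median difference of -2.23 against -0.014 over all genes. With no filter on low values 13 of 30 were lower and 4 higher, and the median was -0.499. Over the 11474 genes of the main fit 25.7% were lower and 22.5% higher, shares that do not apply to the count without a filter. SOX9, a transcription factor of glial progenitors, was set apart, at 3.48, 1.7 and 3.93 CPM in U87MG and 56.3 to 297 CPM in the others. GFAP, the intermediate filament that defines astrocytes, had 6.46, 2.63 and 3.93 CPM, near T98G at 1.99 CPM and DBTRG-05MG at 2.01 CPM as means, and far below U251MG, at 2655 ± 558 CPM (SD, n = 3). SOX2, a stem cell factor, and FABP7, a radial glia fatty acid binding protein, were at 0.142 CPM or less in U87MG, but T98G had them at means of 0.36 and 0.128 CPM. The lower call of GFAP against the mean thus rested on U251MG, and those of SOX2 and FABP7 on U251MG and DBTRG-05MG. Only SOX9 was set apart as lower among the tested members. CSPG4, the proteoglycan NG2 of pericytes and glial progenitors, was set apart as higher, at 17.5, 33.1 and 40.1 CPM against 0 to 3.29 CPM.

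The label of an astrocytic tumor line was checked against fixed markers. Summed astrocyte markers came to 3.25 to 6.89 CPM in U87MG and 2300 to 3460 CPM in U251MG. In each of these lines 3 of 5 markers were at the floor. DBTRG-05MG had a sum of 10.6 to 19.3 CPM, with 0 of 5 at the floor. Oligodendrocyte lineage markers summed to 0.386 to 2.77 CPM in U87MG, with 5 of 6 at the floor, as in U251MG. Endothelial markers summed to at most 1.0 CPM in U87MG, and 5 of 6 were at the floor, as in T98G and U251MG. Pericyte markers summed to 3.48 to 5.54 CPM in U87MG against at most 2.42 CPM elsewhere. Epithelial markers summed to 0.994 to 1.75 CPM in U87MG and to at least 39 CPM, there mostly KRT18, in each other library. Melanocyte and neuron marker sums of U87MG, 2.6 to 3.01 and 17.5 to 36.5 CPM, overlapped those of other lines. In T98G the astrocyte markers summed to 2.72 to 4.26 CPM, with 2 of 5 at the floor, and 1 of the 5 reached 5 CPM in a U87MG library.

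Of 29 tested members of the mesenchymal glioblastoma list, 15 were higher, 6 lower and 8 had no call. Of all genes 22.5% were higher and 25.7% lower. The median difference of the list was 0.79, and 8 members were set apart as higher, against 4.75% of all genes. CHI3L1, a secreted glycoprotein that marks mesenchymal glioblastoma, had 501, 573 and 255 CPM in U87MG and 0.129 to 148 CPM in the others. PLAUR, the urokinase receptor, had 184 to 259.9 CPM against 29.7 to 88.5 CPM. FOSL1, a subunit of AP-1, had 552, 664 and 774 CPM against 116 to 310.4 CPM. In these 3 genes the lowest U87MG library exceeded the highest of the other lines, a condition of being set apart. Set apart in the opposite direction were THBS1, the matrix protein thrombospondin 1, at 0.71, 0.386 and 0.14 CPM against 14.9 to 192 CPM, and S100A4, a calcium-binding protein of motile cells, at 13.3, 11.9 and 12 CPM against 28.4 to 282 CPM.

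Cytokines and NF-kB response genes had 14 of 25 tested members higher, 6 lower and 5 with no call. The shares over all genes were 22.5% higher and 25.7% lower. The median of the list, 0.84, became 1.37 without U87MG replicate 3, 1.59 by edgeR and 1.6 by DESeq2. Beside CSF3 and IL1B, CXCL2, a neutrophil chemokine, was set apart, but unevenly, at 289, 54.2 and 77.3 CPM against 0.234 to 31.5 CPM. NFKBIA, the inhibitor of NF-kB that NF-kB itself induces, had 114, 206 and 153 CPM against 15.6 to 69.2 CPM, and IL24, an interleukin 10 family cytokine, 10.0, 5.8 and 7.93 CPM against 0 to 1.05 CPM. CXCL8, the neutrophil chemokine interleukin 8, was higher against the mean (1.98 ± 0.51, adjusted p = 0.00593) without being set apart, as was CSF2 (2.57 ± 0.43, adjusted p = 0.000229). CCL2, a monocyte chemokine, went the other way, at 7.95, 9.5 and 5.61 CPM against 14.3 to 104 CPM, as did TNFAIP2, at 18.1, 12.8 and 15.4 CPM against 34.4 to 85 CPM. CXCL12, the ligand of CXCR4, had 0 tags in U87MG and a mean of 19.7 CPM in T98G.

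Matrix genes moved both ways. Among 19 tested collagens, 7 were higher and 9 lower, against 22.5% and 25.7% of all genes. COL4A1, a basement membrane chain, had 0 tags in the 3 U87MG libraries and 7.1 to 149 CPM elsewhere, and COL4A2, its partner in the same fibre, had 5.25, 7.57 and 8.98 CPM against 66.8 to 398 CPM. COL14A1, a fibril-associated collagen, had 0, 0.232 and 0 CPM against 7.71 to 254 CPM. Higher, beside COL1A1, was COL7A1, the chain of anchoring fibrils, at 57.5, 115 and 135 CPM against 6.57 to 34.3 CPM.

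Integrins and laminins, the receptors and ligands of basement membrane adhesion, had 12 of 22 tested members lower and 4 higher. Among all genes 25.7% were lower and 22.5% higher. With a mean of at least 5 CPM, a filter to which those shares do not apply, 2 of 19 members were higher. ITGA6, the alpha 6 laminin receptor chain, had 1.99, 0.927 and 0.982 CPM against 10.9 to 73.4 CPM, and ITGB4, which pairs with it, 1.35, 0.927 and 1.19 CPM against 4.32 to 441 CPM. ITGB8, an activator of latent TGF-beta, had 1.21, 1.31 and 1.54 CPM against 7.47 to 172 CPM. All 3 were at or below 2 CPM in U87MG and above 4 CPM elsewhere. ITGA5, the fibronectin receptor chain, was set apart as higher, at 549, 845 and 802 CPM against 76.5 to 459 CPM. ITGB3, a vitronectin receptor chain, had 4.47, 6.26 and 5.19 CPM against 0.0778 to 3.57 CPM.

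Of the matrix proteases and their inhibitors, 12 of 23 tested members were higher and 7 lower, against 22.5% and 25.7% of all genes. Beside CTSK, the proteases MMP3, at 286, 133 and 444 CPM against 0 to 11.7 CPM, and ADAMTS1, at 357, 408 and 318 CPM against 6.97 to 45.9 CPM, were set apart as higher. MMP2, the gelatinase A gene, was also set apart, with 1866, 1738 and 1183 CPM in U87MG and at most 542 CPM in the others. SERPINB2, an intracellular and secreted inhibitor of urokinase, had 13.2, 5.72 and 36.5 CPM against at most 1.05 CPM. Lower were the metalloproteinase inhibitors TIMP3, at 3.69, 5.72 and 3.3 CPM against 19.3 to 967 CPM, and TIMP2, at 101, 71.2 and 62.5 CPM against 203 to 558 CPM. CTSZ, a lysosomal carboxypeptidase, had 0.213, 0.232 and 0.0701 CPM against 20.2 to 412 CPM, and ADAMTS15 had 0 tags in U87MG against 2.07 to 34.3 CPM.

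HOX genes, which mark position along the body axis, had 14 of 19 tested members lower and 2 higher in U87MG, with a median of -1.51, and 19 of all 39 HOX genes were at 3 tags or fewer in each U87MG library, as were 26431 of 40570 autosomal genes (65.1%). With no filter on low values 20 of 38 were lower and 5 higher, with a median of -0.644. With a mean of at least 5 CPM 9 of 13 were lower. The shares over the 11474 genes of the main fit were 25.7% lower and 22.5% higher, and they do not apply to the counts under other filters. HOXB9 had 0 tags against 3.5 to 264 CPM, and HOXC10 had 0, 0.155 and 0 CPM against 10.4 to 35.6 CPM. HOXB6, HOXB13 and HOXC9 were set apart as lower too. HOXB2, at the other end of the HOXB cluster, was called higher, with 37.9, 44.1 and 44.8 CPM, but DBTRG-05MG had a mean of 37.2 CPM, so that it did not pass as set apart. The neighbours HOXB8, HOXB9 and HOXB13, and likewise HOXC13, HOTAIR, HOXC-AS3 and HOXC10, formed runs of consecutive tested genes at the floor in U87MG.

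Of 49 tested developmental transcription factors, 15 were higher and 23 lower, against 22.5% and 25.7% of all genes. PAX8, a paired-box factor of kidney and thyroid development, led the higher ones, with 297, 207 and 316 CPM against 0.627 to 10.5 CPM. TBX18 and TBX15, T-box factors of mesenchymal tissues, had 7.81, 9.5 and 8 CPM against at most 0.125 CPM, and 35.9, 31.9 and 32.9 CPM against at most 12.1 CPM. Lower were TFAP2C, a factor of ectoderm and germ cells, at 1.78, 0.541 and 1.12 CPM against 31.6 to 69.9 CPM, and EN1, a midbrain and limb patterning factor, at 0.071, 0 and 0.0701 CPM against 3.26 to 28.1 CPM. FOXF2 had 0 tags against 2.49 to 41.4 CPM.

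The interferon response and MHC class I list had 17 of 29 tested members lower, 0 higher and 12 without a call. Among all genes 25.7% were lower and 22.5% higher. The median difference of the list was -1.21, and edgeR and DESeq2 each called 1 member higher. HLA-C, a class I heavy chain, had 473, 673 and 373 CPM in U87MG against 1290.1 to 3728 CPM. TAPBP, which loads peptide onto class I, and IFIT2, an interferon-induced antiviral protein, were set apart as lower as well. BST2, the antiviral tetherin, was lower against the mean (-4.87 ± 0.80, adjusted p = 0.000205) and so was IFITM1 (-5.31 ± 0.85, adjusted p = 0.000154), but neither was set apart. HLA tags map less reliably than others because the genes are polymorphic. Thus in the same 3 libraries 7 class II genes were set apart as higher, and HLA-C as lower.

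The insulin-like growth factor axis had 6 of 17 tested members higher and 7 lower, against 22.5% and 25.7% of all genes. Beside IGFBP2, the binding proteins IGFBP4, at 10.2, 13.1 and 4.21 CPM against 25.4 to 418 CPM, and IGFBP5, at 0.71, 2.47 and 0.421 CPM against 3.54 to 2726 CPM, were set apart as lower. IGFBP7 followed, at 74.2, 164 and 76.6 CPM against 225 to 2356 CPM. HTRA1, a protease that cleaves such binding proteins, was set apart as higher, at 113, 151 and 108 CPM against 18 to 61.3 CPM.

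Wnt, BMP and Notch genes had 6 of 29 tested members higher and 13 lower, against 22.5% and 25.7% of all genes. The ligand WNT7B had 43.8, 54.7 and 134 CPM in U87MG, highest in the third replicate, against 0.125 to 1.84 CPM. TCF7, a nuclear effector of Wnt signalling, had 40.2, 41.7 and 55.1 CPM against 2.03 to 16.2 CPM. DKK3, a secreted glycoprotein, had 22.7, 21.4 and 20.3 CPM against 382 to 646 CPM, and SFRP1, a Wnt antagonist, had 0 tags in U87MG against 2.1 to 24 CPM. HEY1, a Notch target, was at 6.39, 1.7 and 2.17 CPM against 11.7 to 113 CPM.

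Contractile and YAP target genes had 5 of 20 tested members higher and 12 lower, against 22.5% and 25.7% of all genes. TPM2, a tropomyosin, had 16.8, 22.1 and 25.8 CPM against 429.6 to 815 CPM, and MYLK, the myosin light chain kinase, 25.5, 38.3 and 42.4 CPM against 59.2 to 177 CPM. MYL9, a regulatory myosin light chain, was set apart as higher, at 227, 246 and 144 CPM against 0.159 to 143 CPM, with DBTRG-05MG nearest, and ACTA2, smooth muscle actin, at 11.6, 13.5 and 11.5 CPM against 0 to 3.24 CPM. CCN2, a YAP target, was lower against the mean (-2.98 ± 0.48, adjusted p = 0.000157) without being set apart.

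Hypoxia and glycolysis genes had 12 of 28 tested members higher and 3 lower, against 22.5% and 25.7% of all genes. CA12, a membrane carbonic anhydrase, had 136, 223 and 133 CPM against 0.469 to 64.9 CPM, and HK2, a hexokinase, 87.1, 94.1 and 76.7 CPM against 9.79 to 44.3 CPM. EGLN3, a prolyl hydroxylase that acts on the hypoxia-inducible factor, was set apart as lower, at 0.284, 1 and 0.421 CPM against 3.48 to 55.1 CPM.

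Of 30 proliferation genes, 11 were higher and 0 lower, against 22.5% and 25.7% of all genes. Their median was 0.83, and 29 had a positive difference. These calls depended on the library. MCM5, a replicative helicase subunit, had 75.5, 181 and 177 CPM, and RRM2, a subunit of ribonucleotide reductase, had 72.4, 484 and 394 CPM, in U87MG, so that the first replicate lay below the other two in both. Without that replicate 21 members were higher, and without the second or the third 4 were. A fit of all 24 libraries called 6 higher and DESeq2 17. None was set apart.

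The glioblastoma pathway genes had 4 of 26 tested members higher and 10 lower, against 22.5% and 25.7% of all genes. Without U87MG replicate 2, only 2 members were higher. ERBB2, a receptor tyrosine kinase, had 4.12, 5.56 and 3.37 CPM against 29.6 to 59.2 CPM, and EPHA2, an ephrin receptor, 4.19, 2.55 and 8.84 CPM against 21.3 to 317 CPM. EGFR and NF1 had no call. EGFR had 125, 114 and 109 CPM in U87MG against 72.1 to 192 CPM (adjusted p = 0.337). MGMT, a DNA repair gene, was at or near the floor in U87MG and DBTRG-05MG and had 101, 90.6 and 149 CPM in T98G. TERT, the telomerase catalytic subunit, was below the 5 CPM limit.

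The p53 target list had 7 of 28 tested members higher, 5 lower and 16 with no call, against 22.5% and 25.7% of all genes. Its median, 0.12, turned to -0.0373 when the deposited CPM were used without scaling, and without the third U87MG replicate 7 members were called instead of 12. The lower ones were 2 without U87MG replicate 2 and 3 without U87MG replicate 3, T98G replicate 1 or 3, U251MG replicate 1 or DBTRG-05MG replicate 1 or 2. CDKN1A, the cell cycle inhibitor p21, had 515, 334 and 374 CPM in U87MG, above T98G and U251MG but below DBTRG-05MG, at 1175, 1473 and 1670.3 CPM. MDM2, a ubiquitin ligase, had no call (adjusted p = 0.852). GDF15, a stress cytokine, was uneven, at 506, 23.5 and 53.3 CPM.

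A stretch of chromosome 9 had almost no tags in U87MG. It ran from MLLT3 to DMRTA1 (chr9:20341669-22455740) and held 54 genes of the table, among them the cell cycle inhibitors CDKN2A and CDKN2B and the methionine salvage gene MTAP. Its ends were those of a run of neighbouring tested genes at the floor in each U87MG Vec library. Few U87MG tags in Vec therefore largely follow from how the stretch was chosen. Over its 3 Vec libraries U87MG had 4 tags there, while T98G had 3003, U251MG 2300 and DBTRG-05MG 5037. Most of the 54 genes had no tag in any given line. Those with a tag in Vec numbered 13 in T98G, 15 in U251MG, 11 in DBTRG-05MG and 4 in U87MG. Over its 3 WWOX libraries, which were not used to choose the stretch, U87MG had 8 tags. DNA copy number was not measured here.

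KLHL9, a ubiquitin ligase adaptor within the stretch, had 0, 0 and 0.0701 CPM in U87MG against 14.1 to 33.1 CPM. FOCAD, the gene of focadhesin, had 0.071, 0 and 0 CPM against 5.84 to 21 CPM. MLLT3, a chromatin reader, had 0 tags in U87MG and was at least 12.6-fold lower than in the nearest line. Neither CDKN2A nor MTAP reached 5 CPM in any Vec library, so neither was tested. CDKN2A had 1.48, 1 and 0.778 CPM in T98G and at most 0.0811 CPM in the 6 libraries of U251MG and DBTRG-05MG, and MTAP had 0.211 to 1.64 CPM in the 9 libraries of the other lines. These genes and CDKN2B had 0 tags in each U87MG Vec library, but CDKN2B also had 0 tags in U251MG and DBTRG-05MG, while T98G had 15.7, 33.5 and 10.7 CPM. Outside the stretch, RPS6, a ribosomal protein gene, had 1938, 1760.4 and 2231 CPM in U87MG, with no call (adjusted p = 0.0767), and TUSC1 had 12.7, 14.7 and 14.7 CPM. RPS6 and TUSC1 were chosen after their values were seen.

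**Figure D3:**
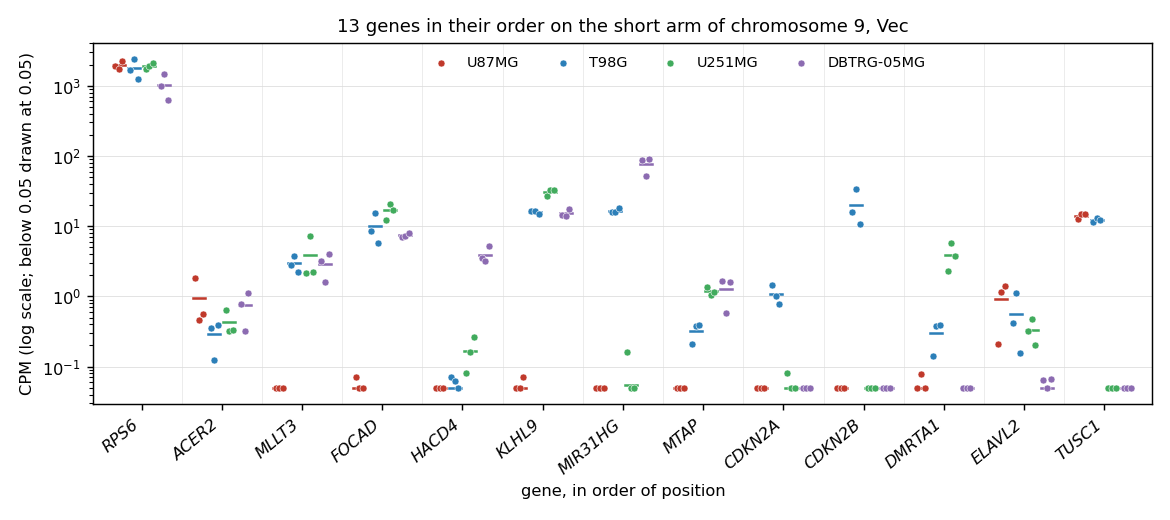
CPM (log scale, values below 0.05 drawn at 0.05) of 13 genes in and around the chromosome 9 stretch, in their order, in Vec; points are libraries, 3 per line, and bars are means. From MLLT3 to DMRTA1 the U87MG points lie at or near 0, with 4 tags in all, which largely follows from how the stretch was chosen.

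Zinc finger genes of the ZNF family, most of which encode DNA-binding repressors, lie in clusters on chromosome 19 and were lower in U87MG as a group. Of 150 tested on that chromosome, 105 (70.0%) were lower, 7 were higher and 73 (48.7%) were set apart as lower, with a median of -1.31. When a mean of at least 5 CPM was required, 33 of 82 tested (40.2%) were set apart as lower, and with no filter on low values 91 of 244 (37.3%). In the main fit 5.6% of all genes were set apart as lower, and the shares of all genes under these other filters are not given here. The other lines each had 0 or 1 of these genes set apart as lower. These counts are not independent, because a gene set apart as lower in U87MG cannot be so in another line. Of the 150, 63 were at the floor in U87MG. Of other genes on chromosome 19, 47 of 664 (7.08%) were set apart as lower, and of zinc finger genes on other autosomes 27 of 179 (15.1%). Summed over the chromosome 19 family, U87MG had 799 to 834 CPM, T98G 1290 to 1480, U251MG 1560 to 1650 and DBTRG-05MG 1810 to 1980 CPM. Of the 73 genes, 64 were set apart as lower again in the WWOX libraries.

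The low genes lay side by side. In chr19:36259540-37719761, 26 zinc finger genes summed to 0.386 to 0.772 CPM in U87MG, and to at least 66.7 CPM in every other Vec library. In chr19:21082159-24129968, 24 such genes summed to 0.155 to 0.491 CPM in U87MG and at least 46.8 CPM elsewhere. Both windows were taken from runs of neighbouring genes set apart as lower in these same Vec libraries. Low sums in U87MG follow from that choice, so the sums describe the windows and are no separate evidence. Over all chromosomes U87MG had 27 runs of 3 or more neighbouring tested genes at the floor, 10 of them on chromosome 19. U251MG had 6 such runs, DBTRG-05MG 4 and T98G 3. U87MG also had more tested genes at the floor, 646 of 11474, against 480 for U251MG, 334 for T98G and 248 for DBTRG-05MG. More genes at the floor give more runs, and whether the runs exceed what these counts alone would give was not tested. Tags shared between related zinc finger genes make single members less certain than the sums above.

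ZNF568 had 0 tags in U87MG and 4.2 to 23.6 CPM elsewhere, at least 31.1-fold lower than in the nearest line, and 0 tags again in the U87MG WWOX libraries. ZNF43 and ZNF808 likewise had 0 tags in U87MG, at least 29.6-fold and 29.4-fold lower. ZNF875 had 0.071, 0.232 and 0.281 CPM against 19.7 to 33.6 CPM. These genes were chosen after their values were seen. The start region of ZNF568 (chr19:36916132-36916331, plus strand) is shown as an example from the longest run, with its 15 CG pairs in capitals.
ZNF568: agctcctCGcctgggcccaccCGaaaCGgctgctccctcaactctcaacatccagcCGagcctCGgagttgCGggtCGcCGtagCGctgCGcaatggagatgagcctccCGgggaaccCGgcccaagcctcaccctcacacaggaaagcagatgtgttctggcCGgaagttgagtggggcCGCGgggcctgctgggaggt

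**Figure D4:**
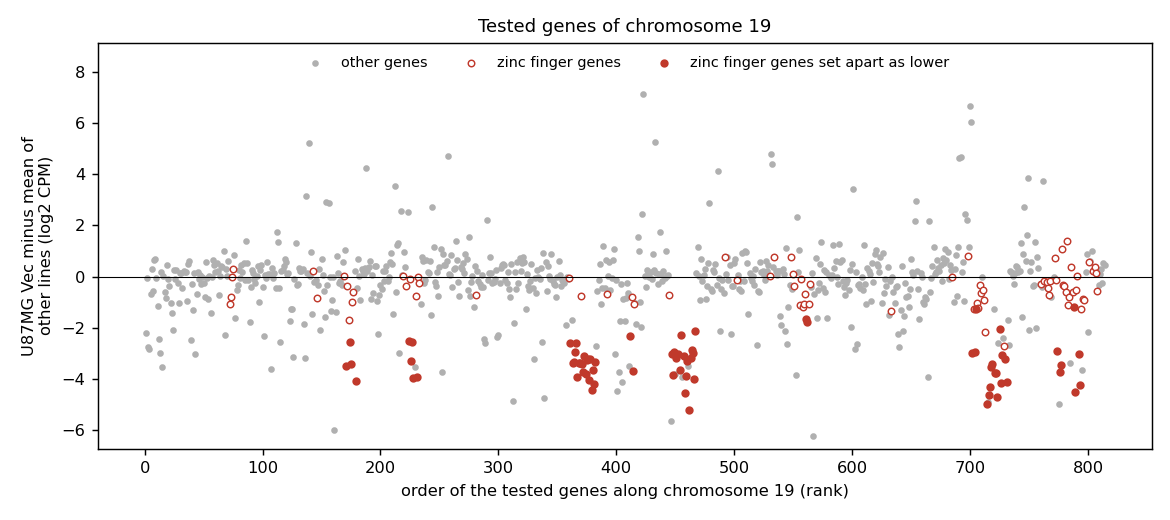
Difference of U87MG Vec from the mean of the other 3 lines, log2(TMM-scaled CPM + 0.5), for each tested gene by its order along chromosome 19; circles are zinc finger genes, filled where set apart as lower, and grey points other genes. The 73 filled circles lie in groups below 0, and the median of the 150 zinc finger genes is -1.31.

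Chromosome 14 stood out in the other direction, with a median difference of 0.52, 45.5% of its 352 tested genes higher and 13.1% set apart as higher, against 22.5% and 4.75% of all genes. Its median was 0.374 with the deposited CPM and 0.0707 with no filter on low values. On chromosome 20, 11.7% of genes were set apart as lower, against 5.6% of all genes, with a median of -0.071. On chromosome 18, 10.5% were set apart as higher, against 4.75% of all genes. Its median was nonetheless -0.0972, with 31.0% of its genes lower against the mean and 23.4% higher. Chromosomes 6 and 11 had medians of -0.254 and -0.251, with 39.0% and 34.2% of genes lower.

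RefSeq start regions of 300 bases, from 250 before to 50 after the start, were found for 9087 of the 11474 genes. TGANTCA occurred in 4.58% of them, in 11.1% of those set apart as higher in U87MG (44 of 398) and in 4.23% of those set apart as lower. For genes set apart as higher in T98G, U251MG and DBTRG-05MG the share was 5.23%, 6.96% and 6.65%. The observed to expected ratio of CG pairs had a median of 0.847 over all genes, 0.712 in those set apart as higher and 0.798 in those set apart as lower. In genes set apart as higher in T98G, U251MG and DBTRG-05MG it was 0.79, 0.781 and 0.786. It was 0.676 in the 66 chromosome 19 zinc finger genes set apart as lower, and 0.799 in the 69 other tested ones. Motifs were searched by their letters, N being any base.

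**Figure D5:**
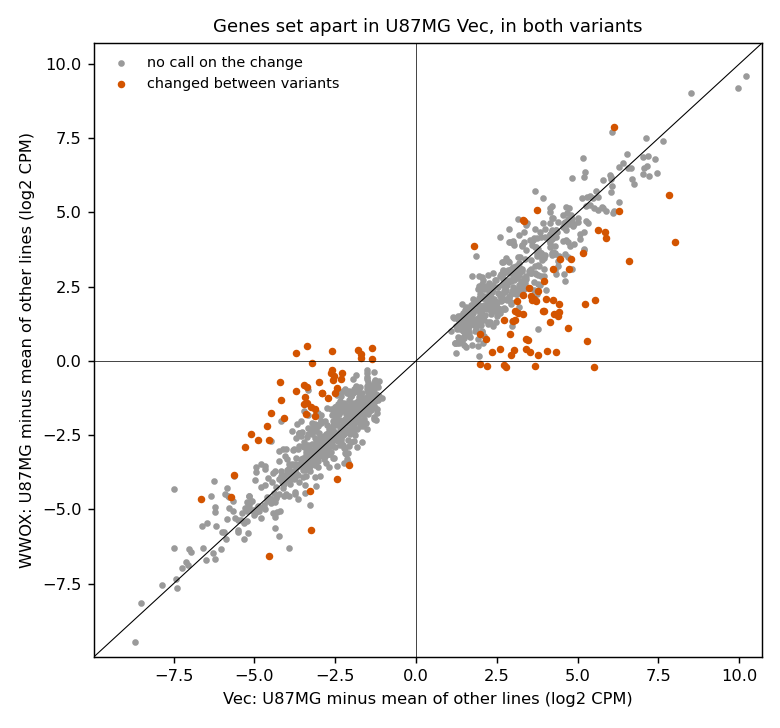
Difference of U87MG from the mean of the other 3 lines in Vec (horizontal) and WWOX (vertical) libraries, log2(TMM-scaled CPM + 0.5), with 1 point per gene set apart in Vec, orange where the difference changed between variants, and a diagonal of equal differences. No gene set apart in Vec was set apart in the opposite direction in WWOX.

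The baseline differences were then read in the WWOX libraries gene by gene. All 20 genes named as highest and lowest were set apart again. In 65 of the 545 and 48 of the 642 genes the difference changed between variants at an adjusted p under 0.05 (limma interaction), against 2.17% of all genes. IL36RN stood at 7.03 to 18.2 CPM in the U87MG WWOX libraries, a change of -4.04 (adjusted p = 2.61e-06). Because the genes were chosen on the Vec libraries, which also enter the interaction, neither the share nor the direction of change is read further.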

How the data were processed

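CAGE-Seq tags were counted per gene in 24 libraries of 4 glioblastoma lines. The authors aligned tags to hg38 with STAR, handled alignments with SAMtools and deposited gene-level CPM, and their notes name limma 3.42. Each deposited column sums to 1000000 CPM. Dividing by the value of 1 tag gave whole numbers (within 0.1 tag) for 100% of values, and so the depth of each library. Whether tags were counted by strand was not given in the sources used here.

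Symbols and positions came from GENCODE 44, which matched 43033 of 43037 genes. Autosomal genes reaching 5 CPM in at least 1 of the 12 Vec libraries were tested with limma 3.58.1 (R 4.3.3) on log2(TMM-scaled CPM + 0.5), with TMM from edgeR 4.0.16, 4 groups, 8 residual degrees of freedom and Benjamini-Hochberg adjustment over all 11474 genes. WWOX libraries were fitted separately, and changes between variants as an interaction over 24 libraries (16 degrees of freedom). The study's methods call the 3 libraries of each group biological triplicates, and p-values measure the spread between them. The script was tested on simulated data. Counting intervals are exact at 95% and cover counting error only.

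Genes were named by rule: the 10 with the largest smallest-difference in each direction, up to 3 set-apart members each way per list (called members with the largest difference, up to 4, where fewer than 3 were set apart), 11 glioblastoma genes and list members at 3 tags or fewer in every U87MG library. Others are said to be chosen after their values were seen, and some genes that the rule named are not reported here. The comparison, its genes and the lists were chosen with earlier results of these data known. Alternatives were other pseudocounts, filters, scalings and tests (edgeR, limma-voom, DESeq2 1.42.0 on recovered tags), all 24 libraries in 1 fit, a replicate block and leaving out each library. Start regions are RefSeq sequence of GRCh38.p14.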

Additional observations from a re-analysis of the deposited data

Results flagged for a closer look

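The U87MG difference from the other lines changed between the Vec and WWOX variants, by the limma interaction over 24 libraries, in 12 of 144 named genes. Over all genes the share was 2.17%. Each value is the WWOX difference minus the Vec difference in log2. The genes had been chosen on the Vec libraries, which also enter this test. Neither their share nor the change towards 0, seen in 11 of the 12, is therefore read further.

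IL36RN changed by -4.04 (adjusted p = 2.61e-06), with 211, 174 and 159 CPM in the U87MG Vec libraries and 7.03 to 18.2 CPM in the WWOX ones, and its neighbour IL36B changed by -3.5 (adjusted p = 6.22e-08), with 12.4 to 32.4 CPM in Vec and 1.29 to 1.71 CPM in WWOX. PAX8 changed by -3.2 (adjusted p = 0.000105), with 207 to 316 CPM in Vec and 23.5 to 65.5 CPM in WWOX. IL24 changed by -3.23 (adjusted p = 1.38e-05) and was not set apart in WWOX. In these 4 genes the U87MG Vec and WWOX libraries did not overlap.

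Smaller decreases were those of COL1A1, by -2.25 (adjusted p = 0.0489), BDKRB1, by -1.24 (adjusted p = 0.0219), and HLA-DQB1, by -1.22 (adjusted p = 0.0147). TPM2, lower in U87MG Vec, was lower still in WWOX, by -1.98 (adjusted p = 0.0151), at 2.24 to 5.32 CPM. Increases were found for ZNF85, by 2.52 (adjusted p = 0.00118), ZNF528, by 2.44 (adjusted p = 0.000843), HOXB6, by 2.43 (adjusted p = 3.07e-06), and NHERF2, by 2.01 (adjusted p = 0.0183). ZNF85 had 0, 0 and 0.14 CPM in the Vec libraries and 2.29 to 3.18 CPM in the WWOX libraries of U87MG.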

How the results depend on the processing

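The count of genes called against the mean of the other lines, 5540, ranged from 4410 without U87MG Vec replicate 3 to 5999 without T98G Vec replicate 2 when 1 library was left out, and was 4222 with a mean of at least 5 CPM and 7403 with no filter, which change the genes tested. On recovered tags edgeR called 5389, limma-voom 5362 and DESeq2 5786. Genes set apart as higher, 545, fell to 332 when a mean of at least 5 CPM was required, which tests fewer genes, and those also set apart in WWOX fell from 351 to 201. With a least difference of 2 in log2 in place of 1, by construction stricter, 279 were set apart as higher and 309 as lower. Under the mean filter 33 chromosome 19 zinc finger genes were set apart as lower instead of 73, an alternative added after seeing the data.

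Same-numbered libraries did not deviate together (5 of 18 pairs correlated above 0.1, range -0.322 to 0.391), so the numbers were not taken to pair them. With a replicate block 5344 genes were called, with 537 set apart as higher and 640 as lower.

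The difference that changed sign was that of MDM2, which had no call. It was at -0.1116 with the deposited CPM and between -0.004264 and 0.1036 when 1 library was left out. Of 144 named genes tested, 139 to 144 kept direction and side of the threshold under each alternative, except the mean filter, under which 124 were tested and all 124 kept them. The cause was not tested. At this depth levels under 0.188 to 0.243 CPM could not be told from 0.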
